A study of Mus musculus with 12 samples.

Results

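Sperm of the mouse carry a set of ADAM proteins, membrane proteins with a disintegrin and a metalloprotease domain, that are made in spermatogenic cells and folded in their endoplasmic reticulum (ER). The 10 genes examined were 7 sperm ADAM genes (Adam1a, Adam1b, Adam2, Adam3, Adam5, Adam6a and Adam18) and 3 genes of testis-specific ER chaperones (Clgn, Calr3 and Pdilt). They were picked by gene symbol, which matched 10 of the 51826 entries of the sperm table and 10 of the 23502 entries of the testis table.

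ADAM2 pairs with ADAM1a to form the fertilin complex of the ER and with ADAM1b to form a complex on the sperm surface. ADAM3 is the member that sperm need to pass from the uterus into the oviduct and to bind the zona pellucida, and it is lost from sperm when its partners or chaperones are missing. Calmegin (Clgn) and calsperin (Calr3) are testis relatives of the lectin chaperones calnexin (Canx) and calreticulin (Calr), and PDILT is a testis relative of protein disulfide isomerase (P4hb).

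Poly(A) RNA was sequenced from 4 groups of 3 libraries, described by the study as biological replicates on a C57BL/6J background. Mature sperm came from the cauda epididymis of P56 mice, either WT or Xap5l KO, a whole-body knockout made with CRISPR/Cas9. Whole testes came from P16 mice, either WT or Xap5 cKO, in which a floxed Xap5 was deleted by Cre expressed from the Stra8 locus. The paper does not give the background of the mice that carried this Cre. Stra8-driven Cre acts in male germ cells, so the somatic cells of the cKO testis keep Xap5, and P16 testes hold germ cells up to pachytene spermatocytes but almost no spermatids. The labels call the testis controls WT, and the study's text names Xap5 fl/Y males as controls in its fertility work on the cKO. How many animals stand behind each library was not given in the sources used here, so the p-values measure the spread between these libraries.

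Library totals lay between 38881197 and 52308452 counts in sperm and between 32251198 and 36759054 in testes. Xap5l, listed as Fam50b, fell from between 419 and 574 counts in WT sperm to between 8 and 23 in Xap5l KO sperm. For Xap5, listed as Fam50a, counts lay between 811 and 988 in testes of WT mice and between 616 and 673 in those of Xap5 cKO mice, where somatic cells keep the gene. Fam50b was also low in Xap5 cKO testes, with 6, 0 and 7 counts against 532, 539 and 197 in WT. Markers of elongating spermatids summed to between 51100 and 142000 CPM (counts scaled to library size by TMM) in sperm and to between 5.02 and 6.19 CPM in testes, where Prm2 and Smcp were at 0 in every library. Leukocyte markers summed to between 2620 and 5080 CPM and epididymal markers to between 4010 and 7380 CPM across sperm libraries, with Lcn9 at 0 in every library. WT testes replicate 3 stood apart from replicates 1 and 2, as described with the testis results.

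Of the members, 3 are neighbours on the minus strand of chromosome 8 in GRCm38 (GENCODE M21). Adam18 spans chr8:24602246-24674755, Adam3 spans chr8:24677225-24725852 and Adam5 spans chr8:24727093-24824369. Adam32, another germ-cell gene, follows at chr8:24836140-24948804, and the widely expressed Adam9 follows it at chr8:24949611-25016927. The chaperone genes Clgn (chr8:83389867-83428552, plus strand) and Calr3 (chr8:72424176-72443870, minus strand) lie elsewhere on that chromosome. Adam2 is at chr14:66027329-66077733, Pdilt at chr7:119486587-119523489, Adam6a at chr12:113543908-113546465 and the single-exon Adam1b at chr5:121500098-121503435.

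The annotated Adam1a model, chr5:121518576-121545482, runs through exons of its neighbour Mapkapk5. Of its stretches of 150 exon bases, the length of a read, 75.6% also occur in transcripts of Adam1b, Gm42878 or Mapkapk5. For Adam1b the share was 29.3%, all with Adam1a, and for Adam6a it was 5.35%, all with Adam6b. No such stretch was shared by the other 7 members. Counts of Adam1a, and less so of Adam1b and Adam6a, are therefore uncertain to the extent that reads could be assigned to a neighbour or copy. Exons of Adam3 and Pdilt overlap genes on the other strand, and strand use in the counting was not given in the sources used here.

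RefSeq promoter windows (GRCm38.p6, 250 bases before to 50 bases after the start) were found for 5 members, Adam1a, Adam1b, Adam6a, Calr3 and Pdilt. They were searched on both strands for 4 sequences bound by spermatogenic regulators. These were the cAMP response element TGACGTCA, its core TGACG, which the full element contains, the X-box core GTTGCC and the MYB core AACTG. Of all 32851 promoter windows, 1.79% held the full element, 20.8% its core, 12.5% the X-box core and 44.8% the MYB core. The windows of 3 genes are printed because their genes behaved differently: Adam1b rose in Xap5l KO sperm and fell in Xap5 cKO testes, Pdilt rose in sperm, and Calr3 was called in neither. Capitals mark the matches, in either orientation.
Adam1b, chr5:121503386-121503685, minus strand: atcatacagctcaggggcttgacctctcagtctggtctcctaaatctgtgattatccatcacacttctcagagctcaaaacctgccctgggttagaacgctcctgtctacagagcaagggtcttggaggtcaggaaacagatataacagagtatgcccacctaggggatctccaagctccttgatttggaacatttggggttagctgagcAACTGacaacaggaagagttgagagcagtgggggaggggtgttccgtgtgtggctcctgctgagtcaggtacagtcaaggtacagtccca
Pdilt, chr7:119523433-119523732, minus strand: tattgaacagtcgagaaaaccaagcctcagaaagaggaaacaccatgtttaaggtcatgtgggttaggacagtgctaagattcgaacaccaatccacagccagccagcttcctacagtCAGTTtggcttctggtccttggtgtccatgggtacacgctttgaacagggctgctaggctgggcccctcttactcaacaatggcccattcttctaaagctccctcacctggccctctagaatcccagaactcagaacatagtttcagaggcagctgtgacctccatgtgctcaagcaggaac
Calr3, chr8:72443729-72444028, minus strand: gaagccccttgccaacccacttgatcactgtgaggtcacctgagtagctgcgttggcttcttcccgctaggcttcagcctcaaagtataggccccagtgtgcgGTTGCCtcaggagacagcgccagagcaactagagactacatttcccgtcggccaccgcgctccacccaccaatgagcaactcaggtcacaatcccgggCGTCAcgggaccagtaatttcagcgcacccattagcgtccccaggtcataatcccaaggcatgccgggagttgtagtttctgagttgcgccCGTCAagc
Adam1b, Pdilt and Adam6a each held 1 MYB core, the sequence most common among all promoters. The Calr3 window shown held 1 X-box core and 2 CRE cores, and a downstream start of Calr3 held 1 X-box core. The Adam1a window held none of the 4, and no window of a member held the full element. These matches describe the letters of the windows only.

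In sperm, 6 of the 10 genes rose in Xap5l KO and none fell. The ones that rose were Adam1b, Adam2, Adam3, Adam18, Clgn and Pdilt, by between 2.02-fold and 3-fold. A gene was called at a fold change above 2 and an adjusted p under 0.05, from the quasi-likelihood test of edgeR with p-values adjusted by Benjamini-Hochberg over 20945 genes. By that rule 7.59% of all genes tested rose and 1.27% fell, and at any fold 9.02% were higher and 3.07% lower at that adjusted p. The median log2 fold change was 1.22 over the 10 genes and -0.08 over all genes tested. In 8 of the 10 every KO library was above every WT library, which held for 19.2% of all genes tested. More cells of a type and more RNA per cell cannot be told apart.

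**Figure D1:**
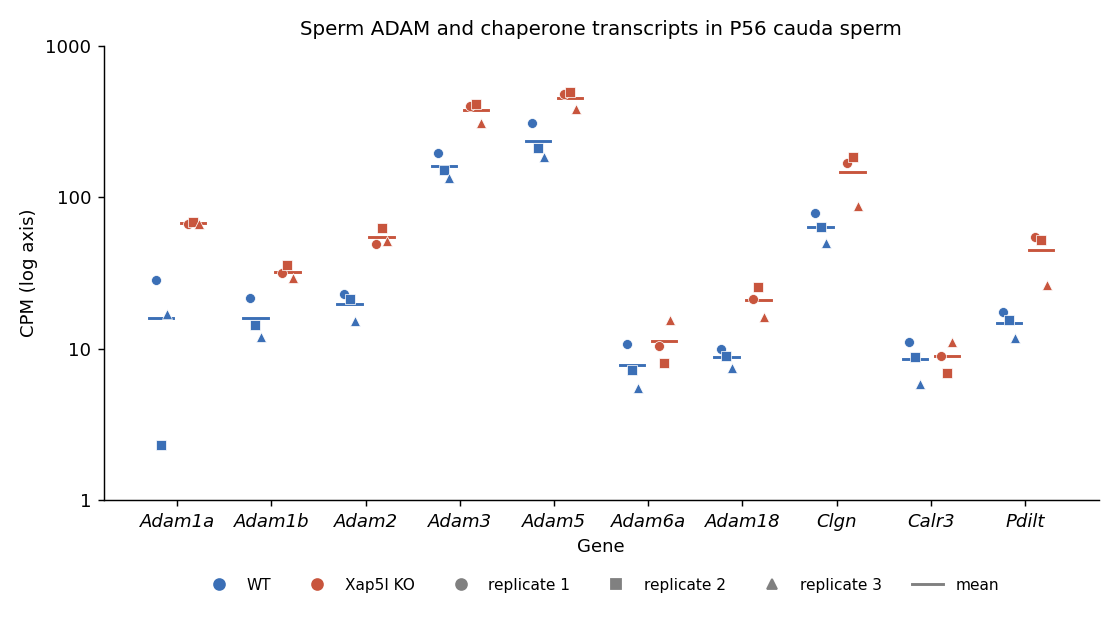
Level of each gene in each sperm library in CPM (log axis), with WT in blue, Xap5l KO in red, a symbol per replicate and a line at the mean of 3. KO libraries sit above WT libraries for every gene but Adam6a and Calr3, and WT replicate 2 sits apart for Adam1a at 2.31 CPM.

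Adam3 measured 195, 151 and 135 CPM in WT sperm and 402, 414 and 312 CPM in Xap5l KO sperm. All KO libraries were well above all WT libraries, by a log2 fold change of 1.23 (SE 0.25, adjusted p = 0.0196 by edgeR). Adam18, its neighbour on chromosome 8, had 10, 9.01 and 7.49 CPM in WT and 21.2, 25.5 and 16.2 CPM in KO. The KO libraries were again all higher, with a log2 fold change of 1.25 (SE 0.23, adjusted p = 0.0164, same test). Adam5, the third gene of that cluster, had 310, 211 and 185 CPM in WT and 481, 494 and 383 CPM in KO. Its groups did not overlap either, but its log2 fold change of 0.94 (SE 0.27, adjusted p = 0.0518, same test) missed the call.

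Of the fertilin genes, Adam2, the shared partner of ADAM1a and ADAM1b, had 23, 21.4 and 15.3 CPM in WT sperm and 49.5, 62.6 and 51.7 CPM in KO sperm. It gave the lowest adjusted p of the 10 in sperm, 0.0125 by edgeR, with a log2 fold change of 1.46 (SE 0.23). Adam1b, the surface partner, went from 21.8, 14.4 and 11.9 CPM to 31.7, 36 and 29.3 CPM, without overlap and just past the fold threshold at 1.01 (SE 0.25, adjusted p = 0.0334). Adam1a, the ER partner, had 28.4, 2.31 and 17 CPM in WT and a narrow 67, 69.2 and 66.7 CPM in KO. WT replicate 2, with 97 counts against 935 and 787 in the other WT libraries, was far below the rest. The log2 fold change of Adam1a, 2.09, had an SE of 0.64 and was not called (adjusted p = 0.0596). It was 1.57 (adjusted p = 0.0734) without WT replicate 2 and 2.80 (adjusted p = 0.0447), then called, without WT replicate 1. Adam6a, a gene without introns, had 10.8, 7.23 and 5.48 CPM in WT and 10.5, 8.07 and 15.4 CPM in KO. These overlapped, with a log2 fold change of 0.53 (SE 0.31, adjusted p = 0.251), as did its near copy Adam6b at 0.25 (SE 0.33, adjusted p = 0.615).

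The 3 chaperones did not move as a group. Pdilt, which acts on ADAM3, had 17.4, 15.4 and 11.8 CPM in WT sperm and 55.2, 52.1 and 26.6 CPM in KO sperm, the largest rise of a called member at 1.59 on the log2 scale (SE 0.30, adjusted p = 0.0165 by edgeR). Clgn, needed for the fertilin pair, rose from 79.3, 63.7 and 49.7 CPM to 170, 186 and 87.9 CPM, a log2 fold change of 1.20 (SE 0.31, adjusted p = 0.038). In both genes KO replicate 3 was the lowest KO library, at 0.496 and 0.494 of the mean of the other 2, yet still above every WT library. Calr3, which ADAM3 needs to mature, had 11.1, 8.89 and 5.83 CPM in WT and 8.97, 6.93 and 11.1 CPM in KO. Its groups overlapped fully, with a log2 fold change of 0.07 (SE 0.28, adjusted p = 0.883).

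The homologues of these chaperones in other tissues gave lower point estimates. Canx was at -0.64 (adjusted p = 0.115 by edgeR), Calr at -0.48 (adjusted p = 0.162) and P4hb at -0.68 (adjusted p = 0.0853), none of them called. Each had every KO library below every WT library, which held for 19.2% of all genes tested. Per kilobase of exon, Clgn stood at 79.7%, 46.1% and 46% of Canx in WT sperm and at 286%, 282% and 90.7% in KO sperm. Pdilt stood at 12.6%, 9.71% and 8.46% of P4hb in WT and at 79.7%, 59.4% and 23.3% in KO. Both ratios were higher in every KO library than in any WT library, with KO replicate 3 nearest to WT. Calr3 stayed between 2.48% and 6.87% of Calr in all 6 sperm libraries.

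**Figure D2:**
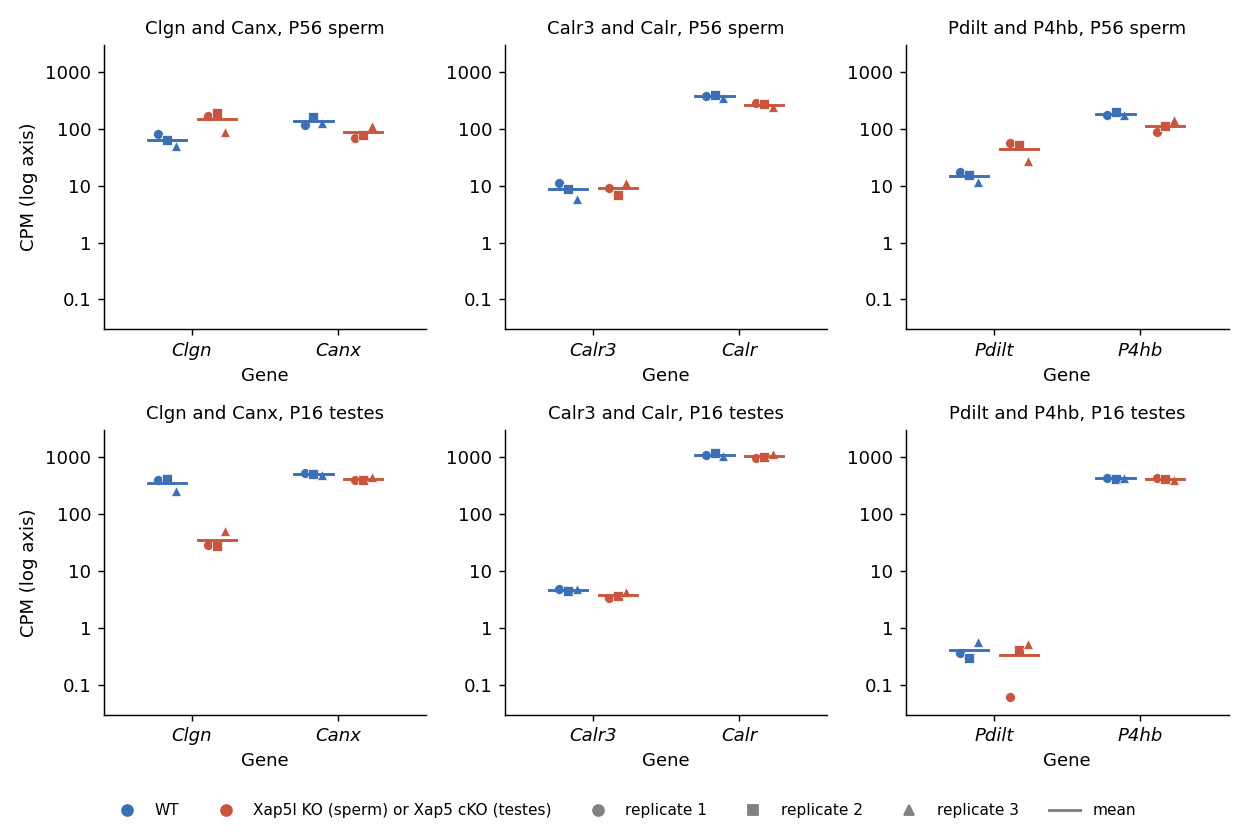
CPM (log axis) of each testis chaperone beside its widely expressed homologue, for sperm above and testes below, with a symbol per library and a line at the mean of 3. Clgn and Pdilt lie higher in Xap5l KO sperm while Canx and P4hb lie lower, and in testes only Clgn separates widely, from 254 to 413 CPM in WT and from 27.1 to 50.4 CPM in cKO.

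The sperm calls depended on which libraries entered. Leaving out WT replicate 2, WT replicate 3 or KO replicate 2 left 0 of the 10 called by edgeR, with the adjusted p of Adam2, the lowest of the called genes, at 0.0734, 0.0812 and 0.0583. Without KO replicate 1 only Adam2 and Adam18 were called. Without WT replicate 1, 8 were called, and without KO replicate 3, 7. The share of all genes tested that rose was 8.76% without WT replicate 1, 11.2% without KO replicate 3 and 2.24% without KO replicate 1, and between 0.0046% and 0.00466% in the other 3 fits. In these 6 fits the log2 fold change kept its sign for every member but Calr3.

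Markers of round spermatids moved in the same direction as the called members in sperm. Of 8 such markers 7 rose, and their sum was 139, 106 and 100 CPM in WT and 402, 352 and 226 CPM in KO. Pachytene markers rose in 2 of 8 and elongating spermatid markers in 1 of 9. Leukocyte markers fell in 2 of 7, their sum going from between 4500 and 5080 CPM to between 2620 and 3200 CPM. Sertoli markers fell in 1 of 7 tested, though their sum went from between 647 and 763 CPM to between 1060 and 1330 CPM. No tested spermatogonial, leptotene and zygotene, Leydig, myoid or epididymal marker was called. By the same rule 7.59% of all genes tested rose and 1.27% fell. KO replicate 3, lowest for Clgn and Pdilt, was the lowest KO library for the summed round spermatid markers but the highest for the summed pachytene markers. The pachytene sum was 2570, 1630 and 1600 CPM in WT and 3370, 3200 and 3410 CPM in KO. Yet 5 of the 8 pachytene markers were below the mean of KO replicates 1 and 2 in KO replicate 3, with a median ratio of 0.858. Median ratios there were 0.701 for round spermatid, 1.35 for elongating spermatid and 1.56 for leukocyte markers, and 1.33 for the general ER folding factors. Adam6a and Calr3 were above the mean of KO replicates 1 and 2 in KO replicate 3, at 1.66 and 1.4 of it. The part of these markers in the result was not tested.

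In P16 testes 6 of the 9 members tested fell in Xap5 cKO and none rose. They were Adam1b, Adam2, Adam3, Adam5, Adam18 and Clgn, while Adam1a, Calr3 and Pdilt were tested without a call and Adam6a had 0 counts in all 6 libraries. Over 16821 genes tested by the same edgeR rule, 10.9% fell and 4.15% rose, and at any fold 28.1% were lower and 25% higher at an adjusted p under 0.05. In 7 of the 9, Calr3 included, every cKO library was below every WT library, which held for 32.4% of all genes tested, and in none was it above, which held for 29.9%. The median log2 fold change was -3.33 over the 9 genes, unchanged with genes at 0 set to their bounds, and -0.01 over all genes tested. Fewer cells of a type and less RNA per cell cannot be told apart in these whole testes.

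**Figure D3:**
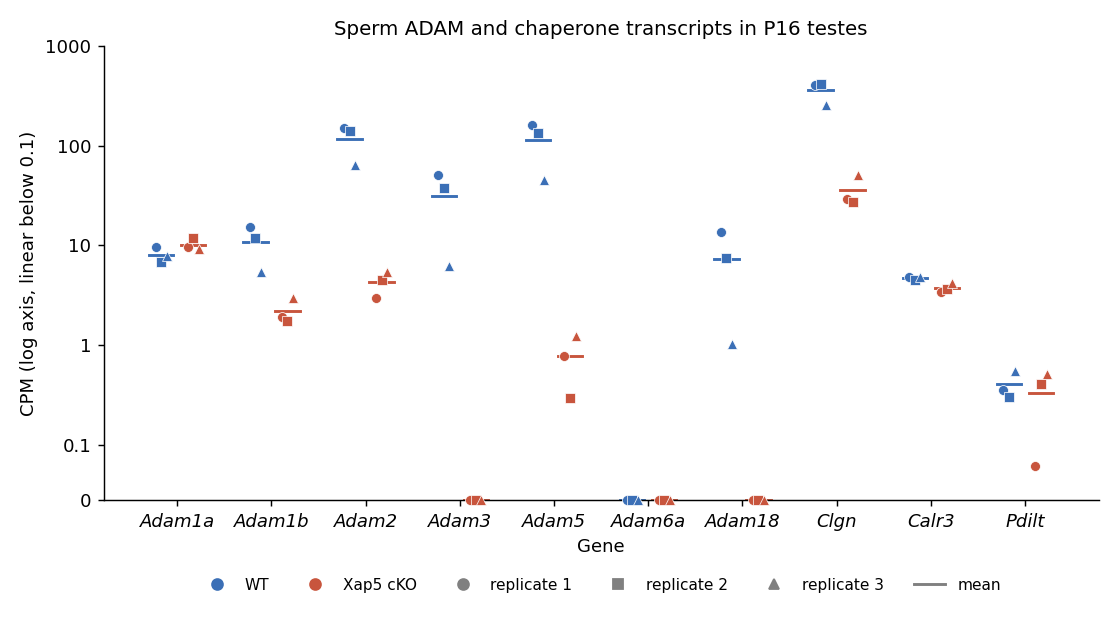
Level of each gene in each P16 testis library in CPM (log axis, linear below 0.1), with WT in blue, Xap5 cKO in red, a symbol per replicate and a line at the mean of 3. Adam3 and Adam18 are at 0 in the 3 cKO libraries, and WT replicate 3 is the lowest WT library for the 6 genes that fell.

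Adam3 was counted 1697, 1369 and 223 times in the WT libraries and 0 times in each of the 3 Xap5 cKO libraries. With cKO set to the floor of 3 counts per library, its mean was at least 346-fold lower (adjusted p = 0.000419 by edgeR), or at least 241-fold without WT replicate 1. Adam18 likewise went from 453, 273 and 37 counts to 0 in every cKO library, at least 80.8-fold lower (adjusted p = 0.00141), or at least 46.9-fold without WT replicate 1. Adam5, next to Adam3, kept 25, 10 and 41 counts in cKO against 5384, 4850 and 1640 in WT, a log2 fold change of -7.19 (SE 0.59, adjusted p = 2.65e-05).

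Adam2 had 149, 140 and 64.6 CPM in WT testes and 2.98, 4.55 and 5.38 CPM in cKO testes, a log2 fold change of -4.77 (SE 0.35, adjusted p = 1.81e-05, edgeR). Adam1b fell less, from 15.2, 12 and 5.42 CPM to 1.93, 1.76 and 2.95 CPM, a log2 fold change of -2.30 (SE 0.39, adjusted p = 0.00101). In both genes the groups lay well apart even though WT replicate 3 was the lowest WT library. Adam1a had 9.56, 6.89 and 7.87 CPM in WT and 9.54, 11.8 and 9.23 CPM in cKO, overlapping groups with a log2 fold change of 0.33 (SE 0.20, adjusted p = 0.182). The shared exons of Adam1a limit this value.

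Clgn was the most abundant member in P16 testes, at 406, 413 and 254 CPM in WT and 29.2, 27.1 and 50.4 CPM in cKO. It was 10.1-fold lower in cKO, a log2 fold change of -3.33 (SE 0.27, adjusted p = 2.45e-05, edgeR). Its homologue Canx fell too, by 0.29 on the log2 scale (SE 0.06, adjusted p = 0.00402), far under the fold threshold. Clgn per kilobase went from 90.2%, 95.4% and 60.9% of Canx to 8.69%, 7.88% and 13.2%. Calr3 had 4.82, 4.5 and 4.78 CPM in WT and 3.39, 3.67 and 4.22 CPM in cKO, slightly lower in every cKO library but not called (log2 fold change -0.32, SE 0.21, adjusted p = 0.236). Pdilt had only 12, 11 and 20 counts in WT and 2, 14 and 17 in cKO, and a difference was not detectable at this depth (log2 fold change -0.29, SE 0.76, adjusted p = 0.771).

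WT testes replicate 3 had the 6 genes that fell at between 0.0981 and 0.62 of the mean of WT replicates 1 and 2. Pachytene spermatocyte markers were also low there, below the mean of WT replicates 1 and 2 in 8 of 8 genes with a median ratio of 0.463. Leptotene and zygotene markers were below it in 9 of 9, with a median ratio of 0.861, while the median ratio of Sertoli cell markers in that library was 1.03. Without that library the same 6 genes were called, with Adam2 at -5.07 and Clgn at -3.53 on the log2 scale, and all 6 leave-one-out fits called 6. In cKO testes the pachytene markers fell in 6 of 8, from between 1130 and 2200 CPM in sum to between 238 and 324 CPM. Leptotene and zygotene markers fell in 8 of 9. Sertoli markers rose in 1 of 9, their sum going from between 4720 and 5130 CPM to between 7920 and 9430 CPM. Leydig markers rose in 3 of 6 and leukocyte markers in 3 of 5 tested. Spermatogonial markers fell in 2 of 9, round spermatid markers in 2 of 4 tested and epididymal markers in 1 of 4 tested. No tested elongating spermatid or myoid marker was called. By the same rule 10.9% of all genes tested fell and 4.15% rose. In cKO replicate 3 the members lay above the mean of cKO replicates 1 and 2 in 6 of 7 genes, with a median ratio of 1.6. Median ratios there were 1.32 for pachytene, 1.03 for Sertoli and 0.46 for Leydig markers. The part of these shifts in the result was not tested.

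Levels between genes were compared per kilobase of summed exons, leaving out Adam1a for its shared exons. Among the 9 members left, Adam5 came highest in WT sperm at 75.2 ± 21.1 CPM per kilobase (SD, n = 3), then Adam3 at 54.5 ± 10.6, with overlapping libraries. Clgn followed at 16 ± 3.68, apart from both, and the other members lay between 3.06 and 7.4 with each overlapping its neighbour in the order. In WT testes Clgn led at 88.9 ± 22.3 CPM per kilobase, apart from Adam2 at 43.8 ± 17.2 and Adam5 at 36.1 ± 19.1, which overlapped. Pdilt, at 6.52 ± 1.24 in WT sperm, was at 0.178 ± 0.0586 in WT testes, and Adam6a was at 3.06 ± 1.06 in WT sperm and 0 in WT testes. Sperm and testes were normalized apart, so only the order within a tissue is compared.

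Other genes of the family and pathway were counted for comparison. Of 13 further germ-cell Adam genes 7 rose in Xap5l KO sperm, with a median log2 fold change of 1.28, and none fell. Over all genes tested in sperm 7.59% rose and 1.27% fell. They were Adam20 (1.47), Adam24 (1.56), Adam26a (1.57), Adam26b (1.45), Adam30 (1.28), Adam32 (1.40) and Adam39 (1.31), the values being log2 fold changes. Without WT replicate 2, WT replicate 3 or KO replicate 2, none of these 13 was called, and without KO replicate 1, 4 were. The share of all genes tested that rose was at most 0.00466% in the first 3 fits and 2.24% in the last. In testes 3 of the 13 were tested and 2 fell, Adam30 at -3.99 (adjusted p = 9.94e-05) and Adam32 at -6.17 (adjusted p = 9.62e-05), while 7 were at 0 in every library. Over all genes tested in testes 10.9% fell and 4.15% rose. Among 11 Adam genes outside the germ-cell lists, termed widely expressed here, none was called in sperm by edgeR or DESeq2. None passed at an unadjusted p under 0.05 with a fold change above 2 either. Their median log2 fold change was -0.31, with 3 positive and 8 negative. How widely each of them is expressed was not examined. Adam11 was called without KO replicate 3. In testes only Adam19 was called, up by 1.19 on the log2 scale (adjusted p = 0.0028). That count was 0 without WT replicate 2, 2 without WT replicate 3 and 3 without cKO replicate 3. Adam9, next to the chromosome 8 cluster, was at -0.69 in sperm (adjusted p = 0.0572) and at 0.28 in testes (adjusted p = 0.0148), under the fold threshold.

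Genes known to be needed for ADAM3 to mature or for sperm to enter the oviduct gave a mixed pattern. Of 12 in sperm, 4 rose: Ace at 1.12, a peptidase whose testis form sperm need, Cmtm2a at 1.09, Cmtm2b at 1.06 and Lypd4 at 1.37 in log2 fold change. The share over all genes tested in sperm was 7.59%. Leaving out WT replicate 2 or 3, or KO replicate 1 or 2, left none of the 12 called in sperm. At most 2.24% of all genes tested rose in those fits. Tpst2, a tyrosylprotein sulfotransferase, was lower at -0.87 (adjusted p = 0.0455) but under the fold threshold. In testes 5 of 8 tested fell: Tex101 at -1.02, Ly6k at -1.29, Lypd4 at -4.07, Cmtm2a at -8.86, and Cmtm2b. Cmtm2a had 0, 0 and 8 counts in cKO. Cmtm2b, with 0 in each cKO library, was at least 149-fold lower, or at least 104-fold without WT replicate 1. The share over all genes tested in testes was 10.9%. Tex101 lost its call without WT replicate 1, WT replicate 2, cKO replicate 1 or cKO replicate 2, while Pgap1, an enzyme that remodels GPI anchors, lower in cKO (adjusted p = 0.00131) but just under the fold threshold, gained it in those fits except the one without cKO replicate 1. Pmis2 was not analysed here in testes. Ace was higher in cKO testes by 0.58 (adjusted p = 0.00122), again under the fold threshold. None of 11 general ER folding factors was called in either tissue by edgeR or DESeq2, nor at an unadjusted p under 0.05 with a fold change above 2. All 11 were negative in sperm (median -0.55), and in testes 6 were lower and 1 higher at adjusted p under 0.05 with smaller folds. At that adjusted p 28.1% of all genes tested in testes were lower and 25% higher.

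**Figure D4:**
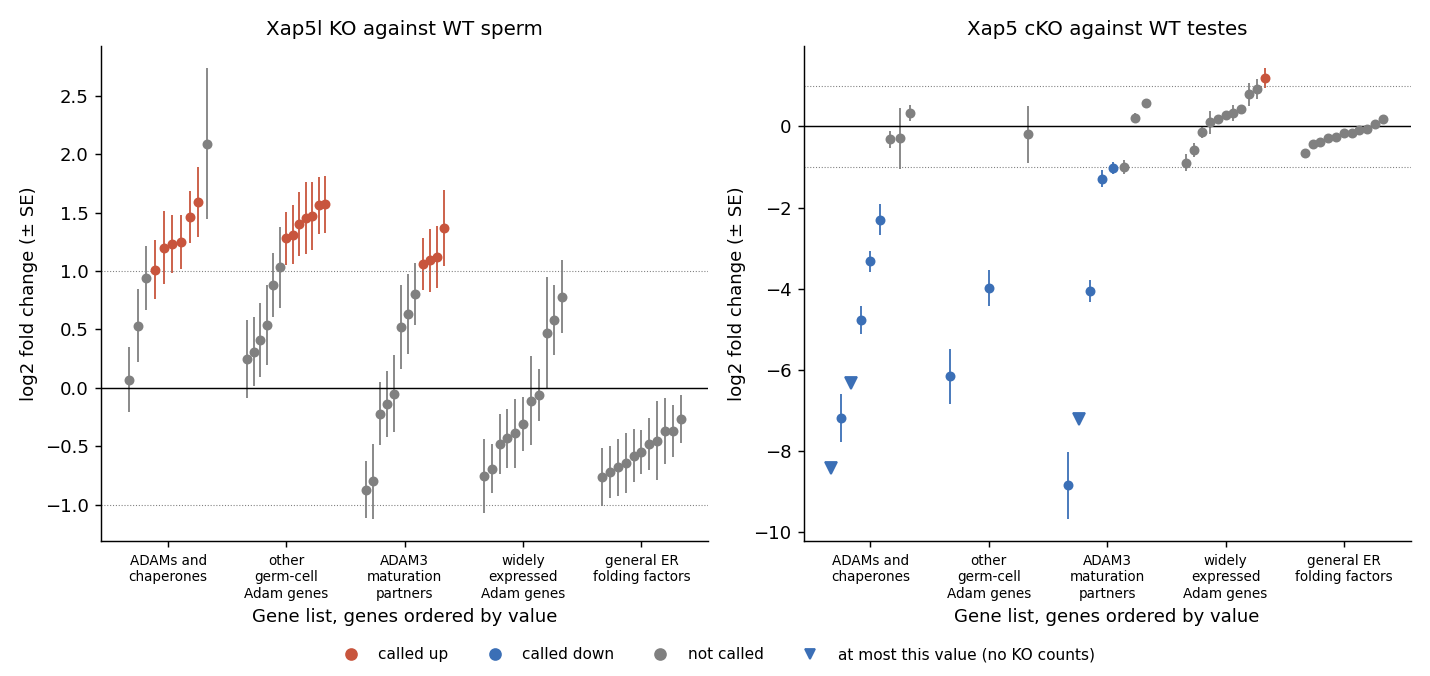
log2 fold change with its SE for every tested gene of the 5 lists, in sperm (Xap5l KO against WT) and testes (Xap5 cKO against WT), with dotted lines at a fold change of 2 and triangles at the bound for genes without cKO counts. The ADAMs and chaperones lie above 0 in sperm (median 1.22) and, except for Adam1a, below 0 in testes, while the general ER folding factors lie below 0 in sperm and between -0.66 and 0.19 in testes.

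The genes whose pattern was most like Adam3 were found by Euclidean distance over 6 libraries on centred log2(CPM + 1), among genes with a mean of at least 5 CPM. In sperm they were Tcte3 (distance 0.0879), Phf7 (0.104) and 4930415O20Rik (0.106) of 10976 candidates. In testes they were Tmbim7 (0.536), Prdx6b (0.641) and 1700029F12Rik (0.663) of 12681. Tcte3 had 44.9, 34.1 and 30.3 CPM in WT sperm and 90.8, 88.9 and 70 CPM in KO sperm. Tmbim7 had 47.1, 39.2 and 9.7 CPM in testes of WT mice and 0, 0 and 0.0304 CPM in those of cKO mice.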

How the data were processed

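RNA-seq counts of 12 libraries were analysed in 4 groups of 3, taken from the sample labels. Per the labels the authors used FastQC 0.11.2, Trimmomatic 0.36, HISAT2 2.1.0 on GRCm38 and DESeq2 1.12.4, and the methods add StringTie. The authors deposited whole-number counts per gene, not normalized, in 1 table per tissue. The counting tool and its treatment of reads that map to several genes were not given in the sources used here.

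For each table, filterByExpr removed low counts, TMM set the scaling, and the quasi-likelihood test of edgeR was run with genotype as the only term and Benjamini-Hochberg adjustment over all genes tested. Calls needed an adjusted p under 0.05 and a fold change above 2. SE belongs to the log2 fold change. The sperm libraries had a biological coefficient of variation of 0.287 and the testis libraries of 0.174. An exact permutation test of 3 against 3 cannot go below 0.1. Groups with 3 or fewer counts in every library were set to 3 counts for a bound. Such bounds cover counting error only. Scripts were tested on simulated data.

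All members were named in both tissues. Of the other lists, called genes, homologues, near copies and the 3 genes most like Adam3 could be named. Adam9, Tpst2 and Prm2 with Smcp were named after their values were seen. Members and lists were chosen with earlier results of these data known. Alternatives were DESeq2, scaling by library size alone or by RLE, no filter, at least 10 counts in every library, rows of 1 gene summed, a replicate block, unadjusted p, no fold threshold and leaving out each library. Versions were edgeR 4.0.16 and DESeq2 1.42.0 in R 4.3.3, and pandas 2.3.3, numpy 2.4.6 and matplotlib 3.10.9 in Python 3.11.15.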

Additional observations from a re-analysis of the deposited data

How the results depend on the processing

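In testes, 6 members were called in every fit except with at least 10 counts in every library, where Adam3 and Adam18 were not tested and 4 were called. In sperm, 6 were called with DESeq2 (10.2% of all genes tested rose) and RLE size factors (8.04%), 7 with at least 10 counts in every library (9.01%), with library size alone (7.38%) and at unadjusted p (11.4%), and 8 without a filter (5.21%). Adam1a gained the call with no filter (log2 fold change 2.16, adjusted p = 0.0128), with at least 10 counts (2.12, 0.0487) and with library size alone (2.21, 0.0119), and Adam5 with no filter (1.01, 0.0355), by edgeR. Leaving out 1 library gave between 0 and 8 called members in sperm, between 0 and 8 other germ-cell Adam genes, between 0 and 5 ADAM3 partners and between 0 and 1 widely expressed Adam genes. In testes it gave between 0 and 3 widely expressed Adam genes. In sperm without WT replicate 2, WT replicate 3 or KO replicate 2, calls over the whole table fell to at most 1 up and 2 down from 1589 and 267. The cause was not tested. Leaving out 1 library moved Calr3 in sperm between -0.16 (without WT replicate 3) and 0.28, with -0.04 without KO replicate 3, and Pdilt in testes between -0.76 and 0.20 (without cKO replicate 1), with 0.00 without WT replicate 3, as log2 fold changes. With no fold change threshold 7 of 11 widely expressed Adam genes (5 higher, 2 lower) and 7 of 11 general ER folding factors (1 higher, 6 lower) passed in testes. By that rule 25% of all genes tested were higher and 28.1% lower. With at least 10 counts in every library 0 other germ-cell Adam genes were called in testes, since 1 was tested.

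Replicate numbers did not pair the libraries. Deviations of same-numbered libraries correlated at 0.15, -0.02 and -0.08 in sperm and at 0.01, -0.01 and -0.01 in testes. With a replicate block 6 members were called in sperm and 6 in testes, the same genes, against 1147 up and 147 down (sperm) and 661 up and 1782 down (testes) over all genes. Among ADAM3 partners the block added Pgap1 in testes. Leaving out 1 library, chosen after seeing the data for the bounds, put them between 241-fold and 485-fold for Adam3, between 46.9-fold and 115-fold for Adam18 and between 104-fold and 203-fold for Cmtm2b. Pdilt in testes had at most 20 counts in a library.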

Other observations

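Adam7, an ADAM gene of the epididymal epithelium whose protein is passed to sperm there, was looked at after its values were seen. In sperm it was counted 23125, 32528 and 26147 times in WT and 9828, 14597 and 33103 times in Xap5l KO, and it had between 0 and 2 counts in every testis library. KO replicates 1 and 2 were below every WT library in counts, and KO replicate 3 was 2.08 times their mean on the CPM scale. Adam7 was not called (log2 fold change -0.87, SE 0.34, adjusted p = 0.109 by edgeR). In KO replicate 3 the 4 tested epididymal markers also lay above the mean of KO replicates 1 and 2, with a median ratio of 1.28. Mitochondrial genes took 10.5% of the counts in that library and between 18.6% and 27.4% in the other sperm libraries.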
